A study of Mus musculus with 12 samples.

Results

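Loss of the nuclear receptor Shp from hepatocytes was compared with the intact gene in the livers of mice fed the diet that the labels call HFCF. The comparison set 3 livers of hepatocyte Shp knockout mice (labelled Shp Hep-/-, here KO) against 3 livers of wild-type mice (WT). All genes of the deposited count table with enough counts for a test were used, which were 14736 of 15846, and the other 1110 were removed by a filter on low counts. All mice were C57BL/6 and 5 months old, and another 3 KO and 3 WT livers came from mice fed chow. The labels name neither the Cre driver of the deletion nor the sex of the mice, and they do not spell out HFCF. The study's title places the comparison in work on fat storage and inflammation in steatohepatitis, so both gene groups are followed below.

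Shp, whose gene is Nr0b2, is an atypical nuclear receptor that lacks a DNA-binding domain and represses transcription by binding other receptors and coregulators. In hepatocytes it is induced by the bile acid receptor FXR (Nr1h4) and is best known for lowering bile acid synthesis through repression of Cyp7a1 and Cyp8b1 at sites bound by LRH-1 (Nr5a2) and HNF4A. It has also been linked to lipid, glucose, one-carbon and inflammatory gene control in the liver.

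The 6 HFCF libraries held 14329648 to 18324134 counts each. Levels are CPM, which are counts relative to the library total after TMM scaling, listed for livers 1, 2 and 3 in that order. A log2 fold change is KO over WT. Beside it, ± is an approximate standard error, the size of the change divided by the square root of its F statistic. It can be too small for genes with few counts in a group. Both come from 1 edgeR quasi-likelihood model of the 12 livers. A gene was called at an adjusted p (Benjamini-Hochberg over all genes tested) under 0.05. The first principal component of the HFCF livers held 63% of their variance and separated the genotypes. The second held 13.2% and set WT liver 1 apart, at 32.2 against -22.7 to 5.19 for the other 5. Values that turn on that liver are therefore also given without it. Each group is 3 mice, and this is bulk tissue: fewer cells of a type and less RNA per cell cannot be told apart.

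Nr0b2 (ENSMUSG00000037583, mm10 chromosome 4, 133553376 to 133556536, plus strand) was the gene deleted by design. It stood at 47.6, 49.6 and 53.4 CPM in WT livers and at 0.509, 0.21 and 0.394 CPM in KO livers. The 3 KO livers were far below the 3 WT livers, and the log2 fold change was -7.05 ± 0.35 (edgeR adjusted p = 3.37e-08). Nudc, its nearest tested neighbour on the opposite strand, which encodes a dynein-associated chaperone, rose by 1.46 ± 0.10 (edgeR adjusted p = 4.45e-07), from 30.9, 35.2 and 33.5 to 81.5, 98 and 94.2 CPM. Beyond Nudc, the provisional genes 1810019J16Rik (1.34 ± 0.19) and Gm17688 (1.20 ± 0.24), which overlap on opposite strands, were also called higher. On the other side of Nr0b2, Gpatch3 (0.20 ± 0.13), Gpn2 (0.03 ± 0.13) and Zdhhc18 (0.10 ± 0.09) were not called. Whether reads or regulation at the locus bear on these rises was not tested.

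Of the 14736 genes, 2814 (19.1%) were called. Of these, 1558 (10.6% of those tested) were higher and 1256 (8.52%) were lower in KO livers. At least 2-fold differences were found for 570 of the higher and 214 of the lower genes. The median log2 fold change over all genes tested was 0.02. In 2719 genes (18.5%) all 3 KO livers lay above all 3 WT livers, and in 2320 (15.7%) all lay below. These shares are the background for the gene groups that follow.

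**Figure D1:**
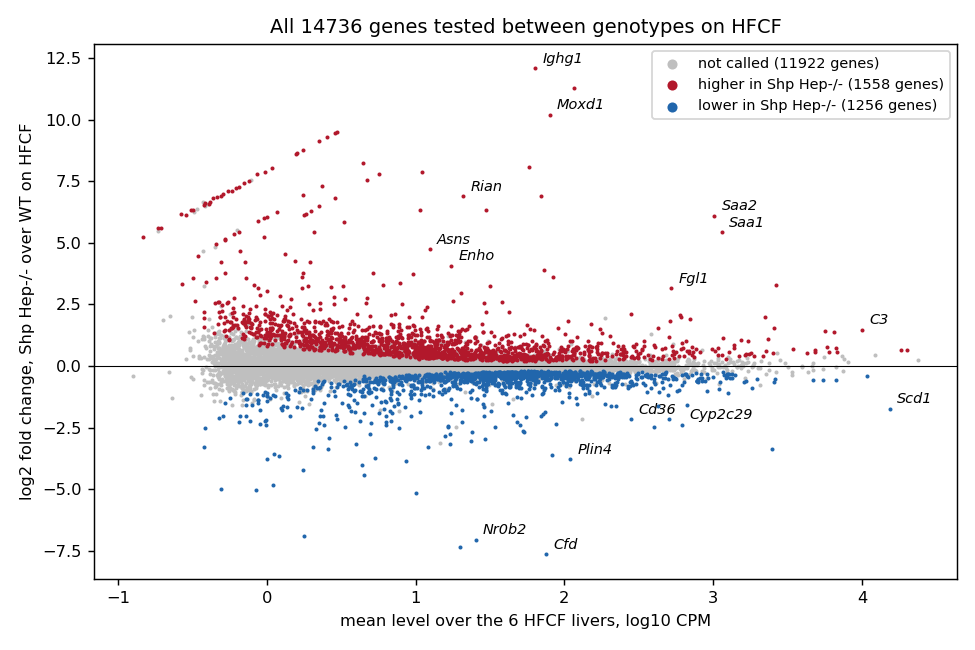
Each point is 1 of the 14736 tested genes, with its mean level over the 6 HFCF livers (log10 CPM) on the x axis and its log2 fold change, KO over WT, on the y axis. Red points are the 1558 genes called higher and blue points the 1256 called lower in KO livers. Rows of points along slanted lines at the upper left are genes with almost no counts in WT livers.

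Immune, acute phase and interferon lists held the largest shares of higher genes. Mitochondrial respiration, adipose marker, cytochrome P450, conjugation and de novo lipogenesis lists held the largest shares of lower genes. Hepatocyte markers, which describe the bulk of the tissue, moved both ways as single genes. Of 19 tested, 5 rose (26.3%, against 10.6% of all genes) and 2 fell (10.5%, against 8.52%), with a median of 0.11. The 5 became 3 without WT liver 1 or 3 or KO liver 1 or 2. The summed level of the 19 was 85510 to 96580 CPM in WT and 103900 to 109900 CPM in KO livers, so every KO liver was higher. In 11 of the 44 lists edgeR called no member lower, and of their 287 members 3 were lower at an unadjusted p under 0.05 and 0 by DESeq2. In 5 lists it called no member higher, and of their 108 members 5 were higher at an unadjusted p under 0.05 and 0 by DESeq2.

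**Figure D2:**
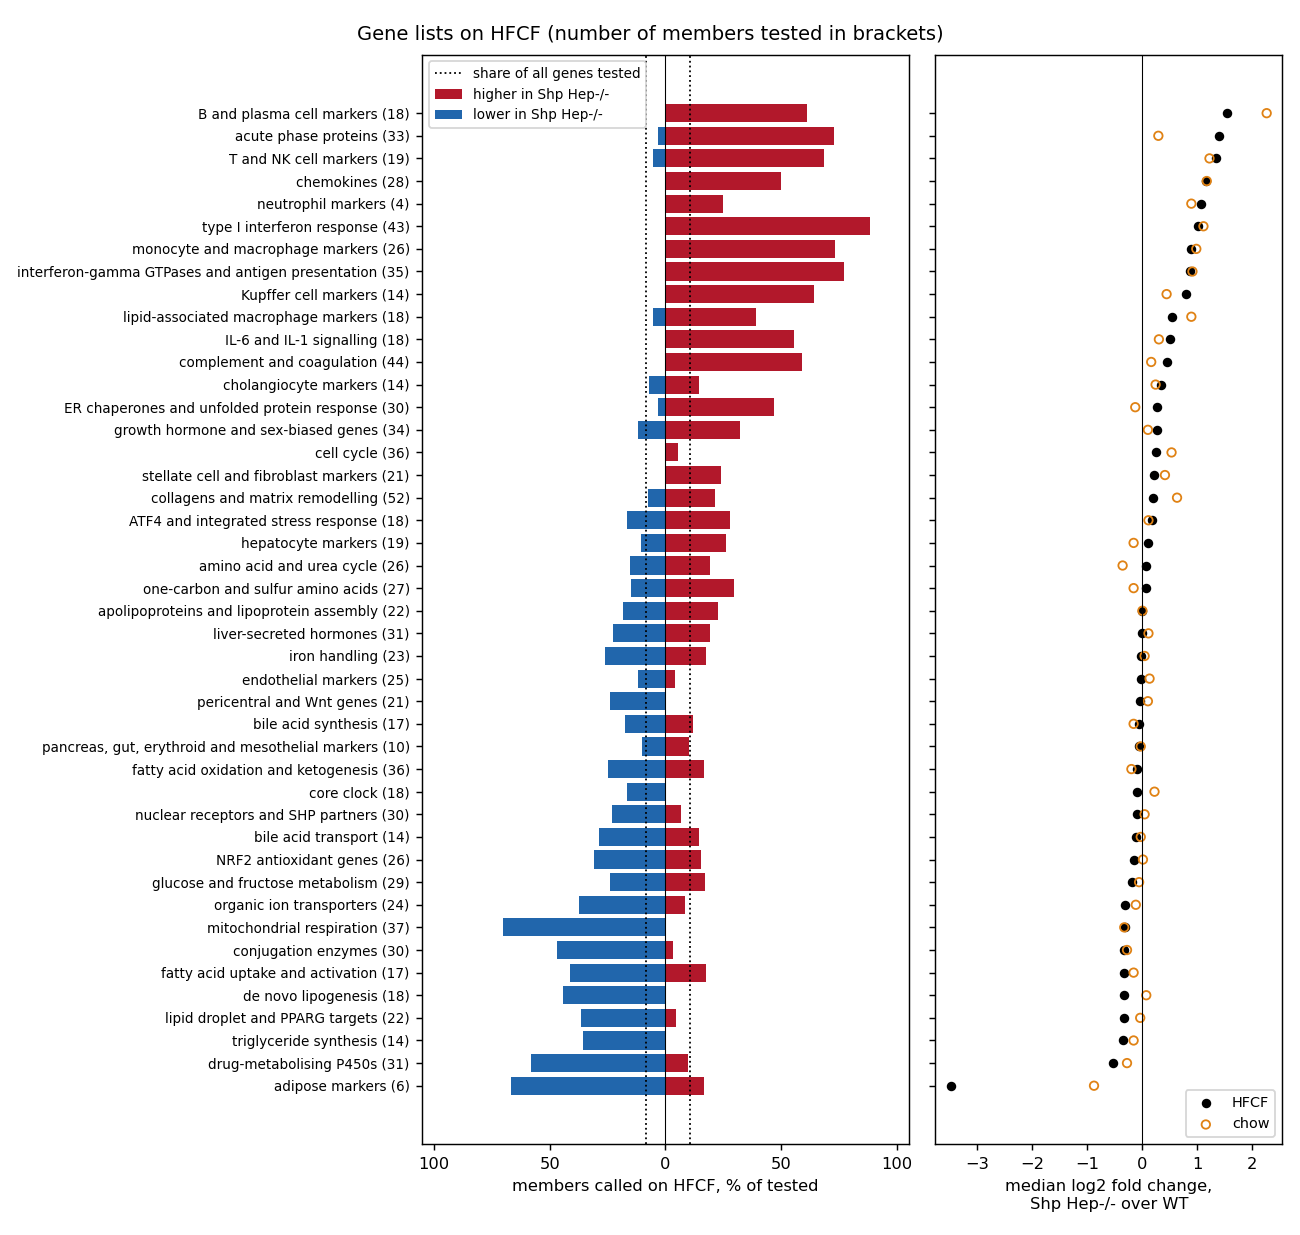
Left, the share of each list's tested members called higher (red) or lower (blue) in KO livers on HFCF, with dotted lines at the share among all genes tested (10.6% and 8.52%). Right, each list's median log2 fold change on HFCF (filled points) and on chow (open points). Type I interferon genes show the largest share of higher members, 38 of 43, and mitochondrial respiration the largest share of lower members, 26 of 37.

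Genes of fat storage in lipid droplets were lower in KO livers, several of them by more than 10-fold. Cidea, which promotes droplet enlargement, stood at 71, 32.2 and 16.2 CPM in WT livers and at 0.291, 0.21 and 0.225 CPM in KO livers. All KO livers lay below all WT livers, and the log2 fold change was -7.33 ± 0.62 (edgeR adjusted p = 4.72e-06). WT liver 1 was the highest of the 3, and without it the value was -6.60. Its relative Cidec went from 219.9, 144 and 92.8 to 18.1, 5.11 and 14.4 CPM (-3.60 ± 0.37, edgeR adjusted p = 2.86e-05).

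Plin4, a droplet coat protein, fell by 3.79 ± 0.33 on the log2 scale, from 224, 196 and 193 to 11.3, 6.71 and 25.3 CPM. Leaving out KO liver 3, the highest KO liver, gave -4.53. Pparg encodes the receptor that drives fat storage programmes in adipocytes and in steatotic liver. It went from 31.9, 32.1 and 19.97 to 7.49, 2.94 and 4.61 CPM (-2.49 ± 0.27, edgeR adjusted p = 4.48e-05), with no overlap between genotypes. G0s2, an inhibitor of the lipase ATGL, fell by 1.61 ± 0.26 (edgeR adjusted p = 0.000897). Fitm1 (-2.09 ± 0.18) and Fitm2 (-0.90 ± 0.14), which act in droplet formation at the endoplasmic reticulum, were also lower in every KO liver. In all, 22 lipid droplet and PPARG target genes were tested, of which 8 fell and 1 rose, with a median of -0.34.

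Cfd, which encodes the adipocyte serine protease adipsin (complement factor D), showed the largest fall among the genes that the naming rule selected. It stood at 104, 217 and 130.3 CPM in WT livers and at 0.654, 0.489 and 1.01 CPM in KO livers (-7.65 ± 0.39, edgeR adjusted p = 4.46e-08). Car3, a carbonic anhydrase abundant in fat and liver, went from 4388, 5001 and 4107 to 487, 492 and 342 CPM (-3.35 ± 0.34). Of 6 tested adipose markers, 4 fell and 1, the beta-3 adrenergic receptor gene Adrb3, rose (2.13 ± 0.22). The remaining marker, Fabp4, was not called. Their summed level, mostly that of Car3, was 4357 to 5407 CPM in WT and 374.7 to 523.1 CPM in KO livers. The other adipocyte genes of the list, Adipoq, Lep, Retn and Plin1, had no match in the deposited counts and could not be tested. The part of adipose tissue in these falls was not tested.

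Fatty acid and triglyceride synthesis genes were lower as well. Scd1, the stearoyl-CoA desaturase, stood at 33770, 18410 and 19080 CPM in WT livers and at 9602, 4310 and 7517 CPM in KO livers. The groups did not overlap, and the log2 fold change was -1.73 ± 0.29 (edgeR adjusted p = 0.00113). Srebf1, the transcription factor gene for fatty acid synthesis, fell from 247, 243 and 191 to 93.1, 133 and 92 CPM (-1.10 ± 0.15, edgeR adjusted p = 0.000278). Thrsp (Spot 14), a lipogenic regulator, was at -2.36 ± 0.40, and the enzymes Me1 and Acss2 were at -0.86 ± 0.20 and -0.52 ± 0.09. Aacs, which activates acetoacetate for lipid synthesis, was at -2.05 ± 0.40 (edgeR adjusted p = 0.00305). Fasn, the fatty acid synthase, was not called (-0.37 ± 0.17, edgeR adjusted p = 0.148), and KO liver 2 stood as high as WT liver 2. Of 18 de novo lipogenesis genes tested, 8 fell and none rose (median -0.34). Their summed level was 20990 to 37290 CPM in WT livers, with WT liver 1 the highest, and 6585 to 12340 CPM in KO livers.

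For triglyceride assembly, Mogat1, a monoacylglycerol acyltransferase, went from 15.6, 4.94 and 5.35 to 0.654, 0.35 and 0.225 CPM (-4.43 ± 0.52, edgeR adjusted p = 7.62e-05), and to -3.68 without WT liver 1. Dgat2, which catalyses the last step of triglyceride synthesis, fell by 0.53 ± 0.09 (edgeR adjusted p = 0.0013). Gpam (-0.38 ± 0.09) and Lpin2 (-0.67 ± 0.16), which act at earlier steps, fell too. The list had 14 tested members, of which 5 fell and none rose by edgeR (median -0.36), while DESeq2 called 8 lower.

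Fat entry and lipoprotein genes moved in both directions. Cd36, the fatty acid translocase, stood at 623, 358 and 398 CPM in WT livers and at 120.3, 90.6 and 100.2 CPM in KO livers (-2.15 ± 0.17, edgeR adjusted p = 3.19e-06). Vldlr, which takes up triglyceride-rich lipoproteins, was at -2.53 ± 0.30 (edgeR adjusted p = 8.12e-05). Lpl, the lipoprotein lipase, rose instead, from 47.1, 44.2 and 36.1 to 85.3, 106 and 107 CPM (1.23 ± 0.12, edgeR adjusted p = 1.85e-05). Of 17 uptake and activation genes tested, 3 rose and 7 fell. Scarb1, the HDL receptor, and Apom, an HDL apolipoprotein, were higher (0.82 ± 0.09 and 0.92 ± 0.12), while Apoa2 was lower (-0.55 ± 0.10). Of 22 apolipoprotein and assembly genes, 5 rose, 4 fell and the median was -0.01, near that of all genes. Leaving out any 1 of the KO HFCF livers reduced the higher ones to 3.

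**Figure D3:**
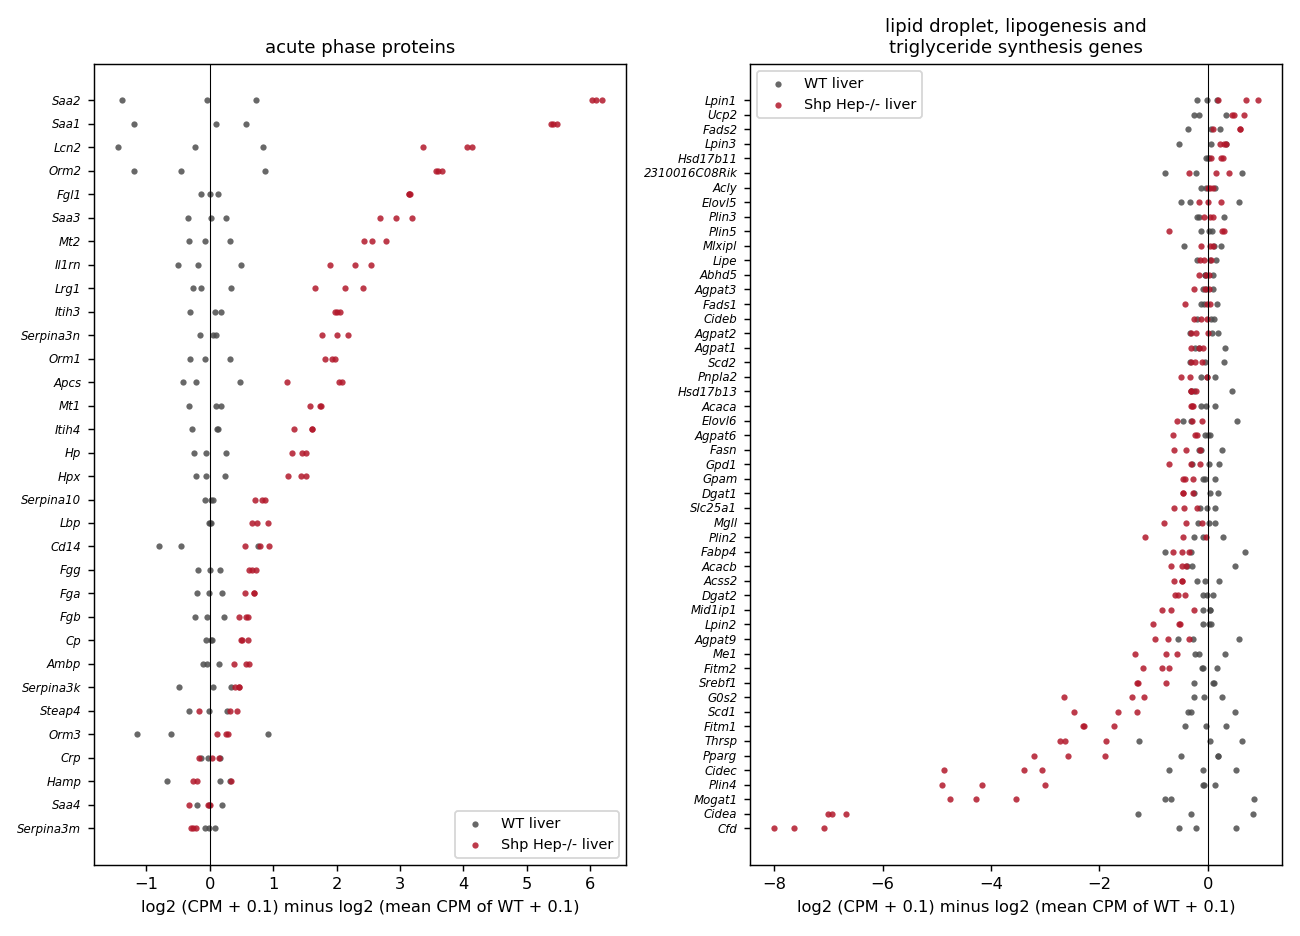
Each row is a gene and each point 1 HFCF liver (grey WT, red KO), on the x axis as log2 (CPM + 0.1) minus log2 of the WT mean + 0.1. Members with a mean of at least 1 CPM are shown. Acute phase genes (left) lie mostly to the right in KO livers, up to Saa2. The lipid genes (right) fan out to the left, down to Cidea and Cfd, with most synthesis genes close to 0.

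Sugar handling genes that feed fat synthesis were partly lower. Khk, the ketohexokinase of fructose breakdown, went from 320.3, 302 and 221 to 163, 159 and 166 CPM (-0.79 ± 0.12, edgeR adjusted p = 0.000482). Gckr, the glucokinase regulator, fell by 0.59 ± 0.09 (edgeR adjusted p = 0.000383). Of 29 glucose and fructose genes tested, 7 fell and 5 rose, with 1 to 3 higher when WT liver 2 or 3 or KO liver 1 or 3 was left out or only the HFCF groups were fitted. In fatty acid oxidation, Ehhadh, a peroxisomal enzyme, rose by 1.03 ± 0.24 and Cyp4a12b, an omega-hydroxylase, by 1.29 ± 0.12 (edgeR adjusted p = 1.65e-05). That list had 6 higher and 9 lower genes of 36. Its lower genes numbered 5 without WT liver 1 or without KO liver 2.

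Acute phase genes, which hepatocytes secrete under inflammatory cytokines such as IL-6, rose in KO livers. Of 33 tested, 24 rose and 1 fell, with a median of 1.40, and their summed level was 31790 to 39730 CPM in WT and 65560 to 72480 CPM in KO livers. Saa1, a serum amyloid A apolipoprotein (ENSMUSG00000074115, mm10 chromosome 7, 46740501 to 46742980, minus strand), stood at 77.5, 55.6 and 22.5 CPM in WT livers and at 2165, 2308 and 2229 CPM in KO livers (5.43 ± 0.67, edgeR adjusted p = 0.000111). The KO livers were alike while the WT livers differed by more than 3-fold. Saa2 went from 47.9, 28 and 11 to 2123, 1984 and 1902 CPM (6.11 ± 0.65), and since the sequences of Saa1 and Saa2 are near-identical, reads could have been split between them.

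Other secreted acute phase proteins rose with smaller spread. Fgl1, a fibrinogen-like hepatokine, went from 95.3, 105 and 115 to 929, 934 and 942 CPM (3.15 ± 0.43, edgeR adjusted p = 0.000224). Hpx (hemopexin, which binds free haem) went from 4217, 3435 and 3071 to 10190, 8383 and 9709 CPM (1.40 ± 0.14, edgeR adjusted p = 1.82e-05). Itih3, an inter-alpha-trypsin inhibitor chain, and Serpina3n, a protease inhibitor, rose by 2.01 ± 0.20 and 2.00 ± 0.25. The orosomucoids Orm1 and Orm2 rose by 1.91 ± 0.17 and 3.60 ± 0.40, the latter 4.41 without WT liver 1. Il1rn, the IL-1 receptor antagonist, rose by 2.28 ± 0.23 and Saa3, made also by macrophages, by 2.99 ± 0.25. The single member that fell was Hamp2, a hepcidin family gene, from 1.48, 1.04 and 0.967 to 0.363, 0.21 and 0.281 CPM (-2.02 ± 0.43).

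The promoters of these genes are shown because the members moved together and because C/EBP factors are known regulators of acute phase genes. RefSeq promoters (GRCm38.p6, 250 bases before to 50 after the start) were searched on both strands for TTGCNNAA, a short form of the C/EBP site. It was found in 3547 of 32851 promoters (10.8%) and in 13 of the 25 acute phase genes with a matching promoter (52%). Among the 19 of these genes that rose, 10 held it, and whether it goes with the rise was not tested. Capitals mark the match, and each stretch is printed on the strand of its gene. The stretches are Saa1 at chr7:46743125-46743192 (minus strand), Saa2 at chr7:46751620-46751687 (plus), Orm2 at chr4:63362299-63362366 (plus) and Hpx at chr7:105600279-105600346 (minus). A match is a description of letters and not a measured site.
Saa1: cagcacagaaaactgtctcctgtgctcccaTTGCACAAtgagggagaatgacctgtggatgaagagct
Saa2: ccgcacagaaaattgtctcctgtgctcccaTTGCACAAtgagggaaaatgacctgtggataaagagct
Orm2: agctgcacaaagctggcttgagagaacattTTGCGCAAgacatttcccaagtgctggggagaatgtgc
Hpx: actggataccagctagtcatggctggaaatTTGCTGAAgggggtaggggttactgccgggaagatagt

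Genes of IL-6 and IL-1 signalling and of complement rose too. Stat3, the transcription factor activated by IL-6, went from 84.3, 87.6 and 92.2 to 149.9, 155 and 147 CPM (0.77 ± 0.16, edgeR adjusted p = 0.00369). Socs3, its feedback inhibitor, rose by 1.36 ± 0.35 (edgeR adjusted p = 0.0141), but did not pass once KO liver 1 was left out (0.97, adjusted p = 0.0762). Of 18 genes of this signalling list tested, 10 rose and none fell. That count was 3 to 4 without WT liver 2, KO liver 1 or KO liver 2, and 5 when only the HFCF groups were fitted. C3, the central complement component, went from 4348, 5851 and 5681 to 13760, 14530 and 15920 CPM (1.48 ± 0.14, edgeR adjusted p = 1.49e-05). Hc (C5) rose by 1.05 ± 0.12 and C1qa, made mainly by macrophages, by 0.85 ± 0.19. Of 44 complement and coagulation genes tested, 26 rose and none fell (median 0.44).

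Interferon-stimulated genes were the group with the largest share of higher members. In the type I interferon list, 38 of 43 rose, none fell and the median was 1.01. Usp18, a negative regulator of the interferon receptor, stood at 15.7, 8.07 and 8.31 CPM in WT livers and at 59.1, 48.7 and 39.7 CPM in KO livers (2.18 ± 0.22, edgeR adjusted p = 2.03e-05). Irf7, which amplifies interferon production, rose by 1.66 ± 0.15 (edgeR adjusted p = 9.42e-06) and Bst2 (tetherin) by 0.74 ± 0.08 (edgeR adjusted p = 2.88e-05). The nucleic acid sensor gene Zbp1 rose by 2.41 ± 0.26, Ifi44 by 1.72 ± 0.22 and Trim30a by 1.06 ± 0.13. In each of these 6 genes WT liver 1 was the highest WT liver and every KO liver lay above it.

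Genes of antigen presentation and of the interferon-gamma induced GTPases rose alongside, 27 of 35 tested, with a median of 0.87 and none lower. Igtp (Irgm3), a GTPase of defence against intracellular pathogens, went from 38.5, 15.5 and 24.2 to 62.4, 78.7 and 54.1 CPM (1.31 ± 0.25, edgeR adjusted p = 0.00267). Irgm1 and Gbp7, GTPases of the same defence, rose by 1.06 ± 0.17 and 1.21 ± 0.21. Psmb8, an immunoproteasome subunit, rose by 1.26 ± 0.18, and Nlrc5, the activator of class I MHC genes, by 1.01 ± 0.12 (edgeR adjusted p = 6.49e-05). Irf1 rose by 0.80 ± 0.14 and the class I gene H2-Q6 by 1.20 ± 0.14. H2-Q2, a further gene of the H2-Q cluster, went the other way, from 36.2, 12 and 11.1 to 0.436, 0.28 and 0.844 CPM (-5.18 ± 0.55, or -4.39 without WT liver 1 and -5.80 without KO liver 3). Paralogs in this cluster share sequence, so its separate values are uncertain.

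The promoters of 4 interferon genes are shown for the interferon-stimulated response element, a sequence known from promoters of interferon-induced genes. A core of it, a GAAA repeated after 2 further bases, was searched on both strands and found in 1131 of 32851 RefSeq promoters (3.44%). It was found in 12 of 28 matched type I interferon genes (42.9%) and in 11 of 24 matched genes of the interferon-gamma and antigen list (45.8%). Among the matched genes that rose, 11 of 24 and 11 of 19 held the core. Capitals mark it, with overlapping matches run together, and in Gbp7 it reads on the other strand. The stretches are Bst2 at chr8:71537557-71537626 (minus strand), Gbp7 at chr3:142530253-142530322 (plus), Igtp at chr11:58199492-58199555 (plus) and Irgm1 at chr11:48871421-48871474 (minus), in GRCm38.p6.
Bst2: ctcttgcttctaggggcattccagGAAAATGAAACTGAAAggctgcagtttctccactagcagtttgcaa
Gbp7: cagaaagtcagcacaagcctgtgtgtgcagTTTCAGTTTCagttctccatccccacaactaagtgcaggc
Igtp: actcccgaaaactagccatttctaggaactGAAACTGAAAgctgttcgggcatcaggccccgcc
Irgm1: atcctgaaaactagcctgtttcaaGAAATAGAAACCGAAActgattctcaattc

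Markers of resident and recruited macrophages rose beside the interferon and complement genes. Of 14 Kupffer cell (resident macrophage) markers tested, 9 rose and none fell (median 0.79), and their summed level was 780.4 to 1081 CPM in WT and 1341 to 1389 CPM in KO livers. Clec4f, a defining Kupffer cell lectin, went from 135, 108 and 88.1 to 189, 169 and 169 CPM (0.67 ± 0.12, edgeR adjusted p = 0.0016). Timd4, of embryonically derived Kupffer cells, rose by 0.92 ± 0.21 and the haemoglobin scavenger receptor gene Cd163 by 1.37 ± 0.16. Of 26 monocyte and macrophage markers, 19 rose and none fell (median 0.89), with summed levels of 304.8 to 604.7 CPM in WT and 756.8 to 852.2 CPM in KO livers. WT liver 1 held the highest WT sum in both lists.

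Mpeg1, a pore-forming protein of macrophages, stood at 130.1, 71.8 and 70.8 CPM in WT livers and at 262, 282 and 229 CPM in KO livers (1.50 ± 0.20, edgeR adjusted p = 0.000189). Ly6c2, of inflammatory monocytes, rose by 3.24 ± 0.40 (4.03 without WT liver 1) from levels under 1 CPM in WT. Ptprc, the pan-leukocyte gene for CD45, rose by 1.12 ± 0.20, and Clec4e (Mincle), which senses dead cells and mycobacteria, went from 0.341, 0.0695 and 0 to 3.85, 3.5 and 1.57 CPM (4.25 ± 0.59, or 6.14 without WT liver 1). How much of the interferon and complement rise came from these cells was not tested.

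Lipid-associated macrophage markers were less uniform. Of 18 tested, 7 rose and 1 fell, and 12 rose without WT liver 1. Trem2 (0.43 ± 0.34) and Gpnmb (0.27 ± 0.46), both defining genes of that state, were not called and their groups overlapped. Without WT liver 1, the highest WT liver for both, they reached 1.00 (edgeR adjusted p = 0.0477) and 1.33 (edgeR adjusted p = 0.0163). The member that fell was Lgals1 (galectin 1), from 137, 69.3 and 48.8 to 19.6, 10.8 and 17.7 CPM (-2.41 ± 0.32, edgeR adjusted p = 0.000197).

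Chemokine and chemokine receptor genes rose at 14 of 28 members, with none lower and a median of 1.16. The count was 7 to 8 when WT liver 2 or 3 or KO liver 1 or 2 was left out, and 9 when only the HFCF groups were fitted. Cxcl10, an interferon-induced chemokine, went from 4.89, 1.25 and 2.38 to 10.7, 10.4 and 5.06 CPM (1.57 ± 0.38, or 2.23 without WT liver 1). Of 12 neutrophil markers, 8 had no match in the deposited counts. Of the 4 tested, 1 rose and none fell, and their summed level stayed under 10 CPM in every liver.

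Of 19 T and NK cell markers tested, 13 rose and 1 fell, with a median of 1.33. The number that rose was 6 to 7 without WT liver 2 or 3 or KO liver 1 or 2. Cd4, the T helper coreceptor, went from 0.853, 1.32 and 0.709 to 2.18, 3.08 and 2.19 CPM (1.37 ± 0.29, edgeR adjusted p = 0.00477). Cd3d and Cd3e, which define T cells, were too low to test, with 0 to 4 and 0 to 2 counts in WT livers and 6 to 10 and 3 to 9 in KO livers. Themis, a T cell signalling gene, made up most of the list's summed level in WT livers and fell, from 61.1, 31 and 33.6 to 8.57, 2.94 and 3.99 CPM (-3.04 ± 0.33, edgeR adjusted p = 4.67e-05). The list summed to 56.57 to 90.11 CPM in WT and 45.91 to 58.13 CPM in KO livers.

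Immunoglobulin transcripts were nearly absent from WT livers and plain in KO livers. Over the 44 immunoglobulin genes tested, of which 37 are V segments and 7 constant genes, the sum was 9.44, 7.44 and 4.96 CPM in WT livers and 664, 733 and 730 CPM in KO livers. Of these, 38 rose and the other 6 were not called. The filter on low counts needs enough counts in only 3 livers. Of the genes that rose, 17 had 0 counts in all 3 WT livers and could not have been called lower. The share that rose was therefore partly set by the filter. Igj, the J chain that joins secreted IgM and IgA, went from 0.91, 0.695 and 0.515 to 53.5, 65.2 and 56.5 CPM (6.34 ± 0.18, edgeR adjusted p = 5.27e-11). Igkc, the kappa constant gene, went from 1.42, 1.25 and 0.773 to 123, 149 and 143 CPM (6.89 ± 0.17), and Ighg2c from 0.171, 0.0695 and 0 to 143, 274 and 278 CPM. Ighg1 had 1 count over the 3 WT livers and 5756 over the 3 KO livers, 5720 times as many (95% counting interval 1030 to 226000). Counting intervals and floors here cover counting error only.

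Ms4a1 (CD20), which marks the B cells themselves, stood at 0.853, 1.11 and 0.644 CPM in WT and 1.38, 1.61 and 0.956 CPM in KO livers and was not called (0.58 ± 0.37, edgeR adjusted p = 0.315). Of 18 B and plasma cell markers, 11 rose and none fell (median 1.53), with summed levels of 208.6 to 235.8 CPM in WT and 984.8 to 1038 CPM in KO livers. All immunoglobulin genes together reached at most 9.44 CPM in a WT liver, so most of the WT sum came from other list members. Whether that part comes from B or plasma cells was not tested. Across the whole table, 31 genes called higher had 0 counts in all 3 WT livers, and 17 of them were immunoglobulin genes.

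A few genes for bile acid synthesis were called, in both directions. Cyp7a1, the rate-limiting enzyme and the best-known target of Shp, stood at 546, 284 and 291 CPM in WT livers and at 547, 910.5 and 639 CPM in KO livers and was not called (0.90 ± 0.31, edgeR adjusted p = 0.0546). WT liver 1 lay just below the lowest KO liver, and without it the gene rose by 1.28 (edgeR adjusted p = 0.00927). It also passed with upper quartile scaling, with limma voom and without WT chow liver 1. Cyp8b1, the sterol 12-alpha-hydroxylase, was at 0.61 ± 0.18 (edgeR adjusted p = 0.0323), with overlapping groups. That call ended when only the HFCF groups were fitted (adjusted p = 0.0799), without WT liver 2 (0.133) or 3 (0.102) and without KO liver 1 (0.14) or 3 (0.0676).

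Cyp7b1, the oxysterol hydroxylase of the alternative pathway, rose from 111, 319.9 and 255 to 1025, 1134 and 742 CPM (2.08 ± 0.33, edgeR adjusted p = 0.000694). Cyp27a1, the sterol 27-hydroxylase, fell by 0.39 ± 0.09 and Cyp46a1, the sterol 24-hydroxylase, was lower as well (-1.69 ± 0.25). Of 17 synthesis genes, 2 rose (11.8%, near the 10.6% of all genes tested). In the other direction 3 fell (17.6%, against 8.52%), or 6 with DESeq2. Among transporters, the canalicular bile salt export pump gene Abcb11 and the uptake carrier Slc10a1 (NTCP) were not called (0.00 ± 0.11 and -0.09 ± 0.08). Abcc3, a basolateral export pump, fell from 523, 427 and 497 to 248, 207 and 249 CPM (-1.04 ± 0.10, edgeR adjusted p = 1.85e-05) and Slco1b2, an uptake carrier, was at -0.54 ± 0.10. Abcc4, another export pump, rose by 1.01 ± 0.20. The transport list had 2 higher and 4 lower genes of 14.

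Among nuclear receptors and partners of Shp, 7 of 30 fell and 2 rose. Nr1h4, for FXR, and Nr5a2, for LRH-1, were not called, at 0.03 ± 0.08 and -0.12 ± 0.12. Esr1, the oestrogen receptor alpha gene, rose from 6.77, 6.82 and 5.48 to 13.4, 12.9 and 13.9 CPM (1.07 ± 0.20, edgeR adjusted p = 0.00226). The xenobiotic receptor CAR (Nr1i3) was at -0.77 ± 0.16, the fatty acid receptor Ppara at -0.43 ± 0.09 and the orphan receptor Esrrg at -1.23 ± 0.18, each lower in every KO liver.

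**Figure D4:**
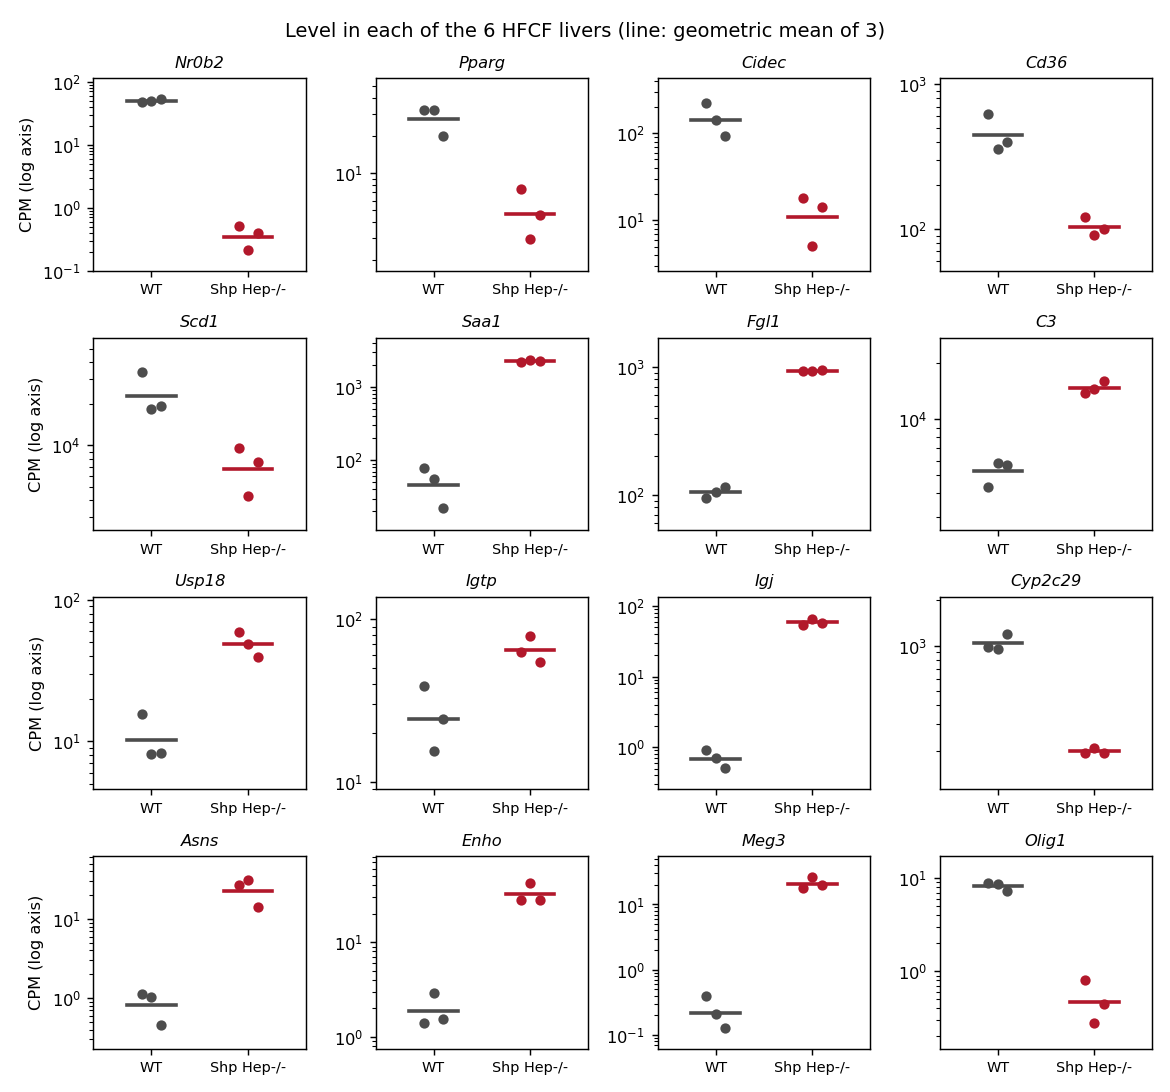
Level in CPM (log axis) of 16 genes in each HFCF liver, WT in grey and KO in red, with livers 1 to 3 from left to right and a line at the geometric mean of the 3 livers. The genotypes do not overlap in any of the 16 panels. WT liver 1 is the highest WT liver for Scd1, Cidec and Usp18, and the 3 WT livers lie close together for Nr0b2 and Olig1.

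Drug-metabolising cytochrome P450 genes were lower at 18 of 31 members and higher at 3, with a median of -0.53. Their summed level was 24470 to 26980 CPM in WT and 17990 to 19270 CPM in KO livers. Cyp2c29 went from 981, 944 and 1198 to 193, 209 and 194 CPM (-2.39 ± 0.13, edgeR adjusted p = 7.88e-08), with tight groups. Cyp2a5, the coumarin hydroxylase, was at -2.15 ± 0.25, Cyp2a12 at -1.16 ± 0.08 and Cyp2c55 at -3.66 ± 0.49, all with no overlap between genotypes. The 3 higher members became 1 without WT liver 3 or KO liver 2. Genes of the Cyp2a and Cyp2c families share sequence, so reads could have been split between them.

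Conjugation enzymes, which attach glutathione, glucuronate or sulfate to drugs and metabolites, had 14 lower and 1 higher of 30 (median -0.33). The glutathione transferase Gstt3 went from 66.8, 50.7 and 58 to 10.5, 9.51 and 11.1 CPM (-2.50 ± 0.16, edgeR adjusted p = 4.45e-07), and Gstt1 fell by 1.55 ± 0.13. Ugt1a1, which conjugates bilirubin and shares exons with other Ugt1a genes, fell by 0.63 ± 0.08. Gstp1, which has a near-identical copy, was the member that rose (0.92 ± 0.12). In the NRF2 antioxidant list, 8 of 26 fell, among them Gsta2 (-2.76 ± 0.22) and Gsta3 (-0.92 ± 0.08). That list's 4 higher genes became 1 to 2 in 8 alternatives.

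Mitochondrial respiration genes fell as a group by small amounts, 26 of 37, and the other 11 were also below 0. The median was -0.32 and the range -0.54 to -0.16. Sdha, a subunit of complex II, went from 662, 643 and 611 to 451, 462 and 445 CPM (-0.50 ± 0.07, edgeR adjusted p = 0.000436), and Cox4i1, a subunit of cytochrome c oxidase, was at -0.40 ± 0.08. In both genes every KO liver lay below every WT liver.

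Amino acid and stress genes held some of the larger rises. Asns, the asparagine synthetase, stood at 1.14, 1.04 and 0.451 CPM in WT livers and at 26.8, 31.2 and 14.1 CPM in KO livers (4.74 ± 0.47, edgeR adjusted p = 1.85e-05). Slc7a11, the cystine importer, rose by 2.15 ± 0.43 from levels under 1 CPM. Both are known targets of ATF4. Of 18 ATF4 and stress response genes tested, 5 rose and 3 fell, with a median of 0.17. Leaving out KO liver 3 reduced the higher ones to 3, and leaving out WT liver 1 or KO liver 2 the lower ones to 1, while 5 were lower without WT chow liver 1 or 2. Fgf21, a stress-induced hormone in that list, was at -1.44 ± 0.40 (edgeR adjusted p = 0.0227), which ended without WT liver 1 (-0.90, adjusted p = 0.111), without KO liver 2 (adjusted p = 0.0684) and when only the HFCF groups were fitted (adjusted p = 0.058).

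The element through which ATF4 and C/EBP proteins bind was searched as TGATGNAA on both strands. It was in 1304 of 32851 RefSeq promoters (3.97%) and in 8 of 17 matched genes of the ATF4 list (47.1%), 2 of which are among the 5 that rose. Those 2 are printed because they are the list's rising members with the element, with capitals marking it. They are Asns at chr6:7693210-7693262 (minus strand) and Slc7a11 at chr3:50443623-50443690 (minus), in GRCm38.p6, and the latter holds it 2 times, on opposite strands.
Asns: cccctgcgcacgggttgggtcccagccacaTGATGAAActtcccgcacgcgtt
Slc7a11: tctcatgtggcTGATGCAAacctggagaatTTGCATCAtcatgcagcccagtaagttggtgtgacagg

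In sulfur amino acid and one-carbon metabolism, Csad, which makes hypotaurine for taurine, went from 249, 247 and 181 to 807, 768 and 833 CPM (1.83 ± 0.14, edgeR adjusted p = 1.84e-06). Cth, which makes cysteine, rose by 1.18 ± 0.19, and Mat1a, which makes S-adenosylmethionine, by 0.58 ± 0.13. Nnmt, which methylates nicotinamide, went from 42.1, 38.1 and 57.1 to 142, 150.1 and 115 CPM (1.56 ± 0.25, edgeR adjusted p = 0.000779). The list had 8 higher and 4 lower genes of 27. The higher ones were 5 without KO liver 2, and the lower ones 2 without WT liver 2, WT liver 3 or KO liver 1.

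In amino acid and urea cycle genes, 5 rose and 4 fell of 26, with 3 higher without KO liver 1 or 2. Got1, an aspartate aminotransferase, rose by 1.32 ± 0.21 (edgeR adjusted p = 0.000726). Glul, the glutamine synthetase of pericentral hepatocytes, went from 1363, 1177 and 1127 to 519, 621 and 669 CPM (-1.02 ± 0.12, edgeR adjusted p = 8.12e-05).

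Endoplasmic reticulum chaperone genes rose at 14 of 30 members and fell at 1, with 8 higher without KO liver 2. Calr (calreticulin) went from 350.3, 387 and 410.3 to 655, 751 and 598 CPM (0.80 ± 0.14, edgeR adjusted p = 0.00135), and the co-chaperone Sdf2l1 rose by 1.54 ± 0.25. Hspa5 (BiP) was at 0.61 ± 0.16 (edgeR adjusted p = 0.0147), but did not pass once WT liver 1 was left out (adjusted p = 0.051), nor without KO liver 2 (adjusted p = 0.0746). Herpud1, of degradation from the endoplasmic reticulum, was the member that fell, from 656, 846 and 829 to 449, 476 and 441 CPM (-0.77 ± 0.13).

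Matrix genes showed a limited and uneven rise. Of 52 collagen and matrix genes, 11 rose and 4 fell (median 0.19), and 4 to 7 rose without WT liver 2 or 3 or KO liver 1 or 3. The 4 lower ones became 1 to 2 without WT liver 1 or 2 or KO liver 1 or 2, and fitting only the HFCF groups left 6 higher and 2 lower. Fn1 (fibronectin, also secreted by hepatocytes) went from 756, 1048 and 1136 to 1735, 1665 and 1886 CPM (0.85 ± 0.18, edgeR adjusted p = 0.00433). Col15a1 rose by 1.46 ± 0.26 and Thbs1 (thrombospondin 1) by 1.47 ± 0.33.

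Both genes of type I collagen, the main collagen of scar tissue, were not called. Col1a1 stood at 17.1, 12.7 and 6.76 CPM in WT and 26.3, 8.95 and 24.9 CPM in KO livers (0.72 ± 0.34, edgeR adjusted p = 0.165), with KO liver 2 inside the WT range. Without that liver it rose by 1.04 (edgeR adjusted p = 0.0182). Col1a2 was at 0.30 ± 0.25. Col5a3, of another fibrillar collagen, fell by 0.67 ± 0.14 (edgeR adjusted p = 0.00409). Of 21 stellate cell and fibroblast markers, 5 rose, among them Thy1 (2.46 ± 0.34), and 3 rose when any of 5 single livers was left out or only the HFCF groups were fitted. Lrat, the retinol esterifying enzyme that defines stellate cells, was level at -0.04 ± 0.12.

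Endothelial markers were close to level, with 1 higher and 3 lower of 25 (0 to 1 lower without WT liver 1, KO liver 1 or KO liver 2), and Stab2, of sinusoidal endothelium, at -0.09 ± 0.08. Cholangiocyte markers had 2 higher and 1 lower of 14. The mucosal peptide gene Tff3, one of the higher ones, went from 0.455, 1.18 and 0.515 to 9.96, 10.1 and 8.78 CPM (3.76 ± 0.31, edgeR adjusted p = 3.7e-06).

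Of 36 cell cycle genes, 2 rose and none fell, with a median of 0.25. Mki67 (0.64 ± 0.23, edgeR adjusted p = 0.0648) and Top2a (0.74 ± 0.27, edgeR adjusted p = 0.0665) were not called. Mki67 passed with DESeq2 and limma voom, and both passed with the replicate block and without WT liver 1. Of 28 markers of tissues that could stray into a liver sample, 10 were tested, which are pancreas, gut, erythroid and mesothelial genes. Cela2a, a pancreatic elastase, rose (1.25 ± 0.31), though not without KO liver 2 or 3 (edgeR adjusted p = 0.0515 and 0.0623), and Alas2, of erythroid haem synthesis, fell (-0.81 ± 0.10). The other 18, among them every muscle gene of the list, had no match in the deposited counts.

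The largest rises outside these groups included a run of imprinted transcripts on chromosome 12. Meg3 (mm10 chromosome 12, 109541001 to 109571726, plus strand), a maternally expressed long non-coding RNA, went from 0.398, 0.209 and 0.129 to 17.8, 26 and 19.7 CPM (6.35 ± 0.27, edgeR adjusted p = 6.42e-09). Its neighbour Rian (chromosome 12, 109603945 to 109661709, plus strand) went from 0.455, 0.348 and 0.193 to 37, 54.3 and 33 CPM (6.91 ± 0.30, edgeR adjusted p = 6.42e-09). Rtl1, a retrotransposon-derived gene (chromosome 12, 109589194 to 109600330, minus strand), rose by 5.83 ± 0.50, or 7.27 without WT liver 1. Rtl1 is overlapped by an antisense transcript, so counts made without strand would mix the pair. Mirg, a microRNA host transcript, had 2 counts over the 3 WT livers and 260 over the 3 KO livers, 129 times as many (95% counting interval 35.4 to 1070).

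Moxd1, a monooxygenase-like gene (mm10 chromosome 10, 24223517 to 24302790, plus strand), stood at 0.114, 0.139 and 0.129 CPM in WT livers and at 160.3, 226 and 90.6 CPM in KO livers (10.20 ± 0.60, edgeR adjusted p = 1.69e-07). Gldn (gliomedin) had 0 counts over the 3 WT livers and 269 over the 3 KO livers, at least 89.2-fold higher at a floor of 3 counts over the group. Slpi, a secreted leukocyte protease inhibitor, rose by 3.37 ± 0.38. Enho, which encodes the secreted peptide adropin, went from 1.42, 2.92 and 1.55 to 27.8, 42.5 and 27.8 CPM (4.08 ± 0.26, edgeR adjusted p = 4.42e-07).

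On the lower side, Olig1, a transcription factor gene known from oligodendrocytes, went from 8.98, 8.55 and 7.22 to 0.799, 0.28 and 0.45 CPM (-4.02 ± 0.25, edgeR adjusted p = 3.01e-07). Gal3st1, a sulfatide-forming sulfotransferase, fell by 3.75 ± 0.40. Slc22a27, an organic anion transporter, had 176 counts over the 3 WT livers and 1 over the 3 KO livers, 177 times fewer (95% counting interval 31.4 to 7030). Gpr98, an adhesion receptor, went from 15.5, 34.6 and 16.4 to 2.47, 1.75 and 2.53 CPM (-3.28 ± 0.34, edgeR adjusted p = 2.86e-05).

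Growth hormone regulated and sex-biased genes split, with 11 higher and 4 lower of 34. The male-biased urinary protein gene Mup20 rose by 1.09 ± 0.16. Mup21 rose by 1.20 ± 0.20 while Mup2 was at -1.81 ± 0.33, in a family of near-identical copies. Cish, an inhibitor of growth hormone signalling, went from 1.42, 5.22 and 0.773 to 13.2, 10.6 and 17.2 CPM (2.51 ± 0.41, or 3.61 without WT liver 2), and Ghr, the growth hormone receptor, fell by 0.43 ± 0.10. Serpina1e, an alpha-1-antitrypsin copy, went from 133, 899 and 417 to 4141, 5499 and 4692 CPM (3.31 ± 0.46, or 4.12 without WT liver 2). WT liver 1 was lowest for it and for the list's summed level, at 10800 CPM against 16670 and 19440 CPM in the other WT livers.

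The same genotype comparison on chow, in 6 other livers, shows which differences were present without HFCF. There 2289 genes (15.5%) were called, 1432 (9.72%) higher and 857 (5.82%) lower. Leaving out WT chow liver 3 gave 1152 and leaving out KO chow liver 2 gave 1442. Of the 2814 HFCF calls, 1213 (43.1%) were also called in the same direction on chow, which is 53% of the chow calls, and 11 were called in opposite directions. Of the 1590 called on HFCF only, 1302 had the same sign on chow, so a miss on chow is not shown to be a difference between diets.

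The interaction test, which asks whether the genotype difference itself differs between diets, called 117 genes (0.794%), or 340 with DESeq2. That number rested on single livers: it ranged from 11 to 136 when each of the 12 was left out, and fell by more than 1.5 times in 9 of the 12 fits, all but those without KO chow liver 2, WT liver 1 or WT liver 3. Of the 117, 97 had the larger difference on HFCF and 20 on chow, and 62 had opposite signs on the diets. Whether the interaction call of a single gene held under the alternatives was examined only for the 12 genes flagged further below. For the other genes named next it was not examined.

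Acute phase genes held the most interaction calls of any list described, 9 of 33 tested. Their median was 1.40 on HFCF and 0.29 on chow, where 6 rose. Saa1 on chow stood at 100.3, 85.3 and 20.1 CPM in WT and 266, 198 and 56.2 CPM in KO livers (1.34 ± 0.57, edgeR adjusted p = 0.128). Fgl1 stood at 763, 390.3 and 215 CPM in WT and 369, 942 and 349 CPM in KO chow livers (0.28 ± 0.39). Orm1, Itih3 and Hpx were also called for the interaction, at 1.12 ± 0.23, 1.51 ± 0.27 and 1.02 ± 0.19 (edgeR adjusted p = 0.0475, 0.0341 and 0.0351).

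Several lipid genes that were lower on HFCF were called for the interaction. Cfd on chow stood at 1.72, 1.42 and 3.94 CPM in WT and 0.996, 1.31 and 1.89 CPM in KO livers (-0.77 ± 0.50, edgeR adjusted p = 0.325), and its interaction was -6.88 ± 0.75 (edgeR adjusted p = 0.0034). Cidec (-2.62 ± 0.51) and Srebf1 (-1.20 ± 0.22) were called too, at edgeR adjusted p = 0.0401 and 0.0341. For Cidea (-6.05 ± 1.47, edgeR adjusted p = 0.0751) and Scd1 (-1.78 ± 0.41, edgeR adjusted p = 0.0607) the interaction was not called. Pparg and Plin4 were called lower on chow also, at -2.11 ± 0.29 and -2.68 ± 0.31.

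Many interferon, antigen presentation and immunoglobulin genes were called higher on both diets. Over all genes tested, 784 of the 1432 called higher on chow were also called higher on HFCF. Type I interferon genes had a median of 1.11 on chow, with 37 of 43 higher, 35 of them also on HFCF, and 1 called for the interaction. In the antigen presentation list 26 rose on chow, 22 of them also on HFCF, and 0 had an interaction. Of the 44 immunoglobulin genes, 39 rose on chow and 33 on both diets, shares that the filter on low counts partly set. The imprinted transcripts Meg3, Rian, Rtl1 and Mirg were each called higher on chow too, and Meg3 was at 6.80 ± 0.24 there (edgeR adjusted p = 5.97e-10).

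On chow 27 of the 52 matrix genes rose, with a median of 0.63. Of these 27, 8 also rose on HFCF, against 784 of 1432 over all genes tested. The interaction was called for 1 of the 52, so a difference between diets is not shown for the others. Col1a1 rose there by 3.03 ± 0.42 (edgeR adjusted p = 0.000459), but its interaction was not called (-2.31 ± 0.55, edgeR adjusted p = 0.07). Cyp2c29, at -1.22 ± 0.12 on chow, was called for the interaction (-1.16 ± 0.17, edgeR adjusted p = 0.0165). Mitochondrial respiration genes were lower on chow too, 26 of 37 with 0 higher, at a median of -0.33 and with 0 called for the interaction. Conjugation enzymes had 17 lower and 3 higher of 30 on chow, and 2 were called for the interaction.

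**Figure D5:**
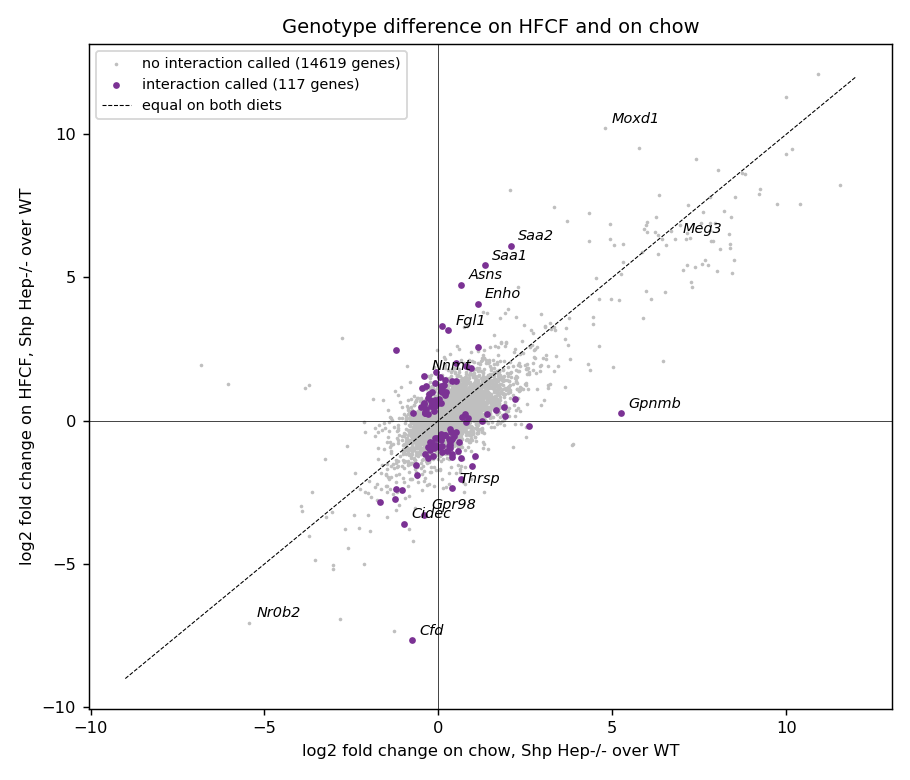
Log2 fold change, KO over WT, of each tested gene on chow (x axis) and on HFCF (y axis), from livers that the 2 comparisons do not share. The dashed line marks equal values, and purple points are the 117 genes called for the interaction. Saa1, Saa2, Asns, Enho and Fgl1 lie above the line, Cfd below it, and Gpnmb far to the right, while Meg3 lies near the line.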

How the data were processed

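Liver RNA was extracted with Trizol and made into stranded TruSeq libraries after Ribo-Zero Gold depletion, per the labels' protocols. The authors deposited whole-number read counts and FPKM values per gene and library, per the file headers. Per the submitters' processing notes, reads were placed on mm10, and the aligner, counter and strand setting are not given in the sources used here. FPKM values, which the authors derived from the counts, entered no test. Group and replicate came from the labels, and 0 per-sample columns stayed unmapped.

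Counts were filtered with filterByExpr (minimum count 10, minimum total 15), scaled by TMM and fitted over 4 group means of the 12 livers (13967116 to 18324134 counts each) by glmQLFit and glmQLFTest of edgeR 4.0.16 in R 4.3.3. The calling threshold was an adjusted p of 0.05, and the common biological coefficient of variation 0.119. Gene starts in the deposited table count from 0 and were raised by 1. The fit was tested on simulated data first. The number of livers, 3 a group, limits the precision of each difference.

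The comparison and the 49 gene lists (1207 symbols, of which 1114 were in the table, 21 by a current symbol or synonym, and 1093 were tested) were chosen with earlier results of these data known. Lists are described by counts and medians without a test, and 44 of them are described. The naming rule took Nr0b2, the 12 top rises and 12 top falls of the HFCF comparison (called, 1 CPM or more on average, no overlap between groups, no provisional symbol and no antigen receptor segment), the 6 largest interactions in each direction, and from each list its first 2 members as written and its 8 or fewer members of lowest adjusted p. The printed examples were picked from these with their values known, and called genes that 1 liver decided were mostly passed over. Some genes of the lists are not reported here by name. The immunoglobulin genes, the neighbours of Nr0b2 and the promoters were chosen after the data were seen.

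As alternatives the scaling was changed to RLE or upper quartile, the filter was dropped or tightened, the test was changed to DESeq2 1.42.0 or voom in limma 3.58.1, the replicate number was added as a block, the HFCF groups were fitted alone, and each liver was left out. Ratios at 1 to 3 counts carry 95% counting intervals from SciPy 1.17.1. Python 3.11.15 with pandas 2.3.3 and matplotlib 3.10.9 drew the figures.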

Additional observations from a re-analysis of the deposited data

Results flagged for a closer look

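These 12 genes are the largest by size, 6 in each direction, among those whose genotype difference differed between HFCF and chow by edgeR's interaction test at an adjusted p under 0.05 and with a mean of at least 1 CPM. Values are the log2 fold change of KO over WT on HFCF minus that on chow.

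On the positive side, Saa1 stood at 4.09 ± 0.82, Asns at 4.08 ± 0.58, Saa2 at 4.03 ± 0.78, Enho at 2.95 ± 0.34, Fgl1 at 2.87 ± 0.57 and Nnmt at 1.97 ± 0.35. Each was higher in KO livers on HFCF, and on chow the genotype difference was called for Saa2 (2.08 ± 0.56) and Enho (1.13 ± 0.21) but not for Saa1, Asns, Fgl1 or Nnmt. Asns stood at 26, 40.1 and 21.6 CPM in WT and 29.2, 49.5 and 60.05 CPM in KO chow livers, and Enho at 12.8, 16.9 and 14.1 and 25.6, 37.7 and 32.9 CPM.

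On the negative side, Cfd stood at -6.88 ± 0.75, Gpnmb at -4.99 ± 0.84, Gpr98 at -2.87 ± 0.55, Ugt2b37 at -2.76 ± 0.51, Thrsp at -2.75 ± 0.59 and Aacs at -2.68 ± 0.58. For Cfd, Gpr98, Thrsp and Aacs the fall was on HFCF, and on chow no difference was called. For Gpnmb and Ugt2b37 a rise on chow (5.26 ± 0.65 and 2.60 ± 0.32) had no called counterpart on HFCF (0.27 ± 0.46 and -0.17 ± 0.39). Gpnmb stood at 0.358, 0.283 and 0.484 CPM in WT and 14, 14.2 and 15.8 CPM in KO chow livers.

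Cfd, Enho and Asns were called whichever single liver was left out, while the other 9 lost the call in 7 to 11 of the 12 fits that left out a liver. Limma voom lost 7 of the 12 calls (Saa1, Asns, Gpnmb, Gpr98, Ugt2b37, Thrsp and Aacs), the replicate block 2 (Thrsp and Aacs) and the fit without a filter on low counts 1 (Aacs).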

How the results depend on the processing

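On HFCF the number of called genes was 2814, with 2673 to 2839 under DESeq2, limma voom, the replicate block and other scalings or filters, 2197 with only the HFCF groups fitted, and 2042 to 2834 when each liver was left out. No scaling moved the share of higher calls by more than 10 percentage points. On chow, leaving out each liver gave 1152 to 2788. For the interaction DESeq2 called 340, the other settings 97 to 122, and leaving out each liver 11 to 136. The interaction values of the flagged genes under these alternatives were added after seeing the data. Of 147 called genes among the named genes tested under these alternatives, 142 kept their call in every alternative and none changed sign. These genes were picked mainly for low adjusted p or large differences, and called genes that 1 liver decided were mostly passed over. Both favour keeping a call, so the 142 do not measure how stable calls are. Over all genes, 1939 to 2200 of the 2814 HFCF calls were kept when 1 of the HFCF livers was left out. Among the named genes, Cyp8b1 and Fgf21 lost the call when only the HFCF groups were fitted. These 2, Hspa5, Socs3 and Cela2a lost it when a liver was left out. The cause was not tested.

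Among the named genes that were not called, Abcb11, Nr1h4 and Gpnmb changed sign under some alternatives. Cyp7a1, Col1a1, Mki67, Top2a and Trem2 instead kept their sign and were called higher in at least 1 alternative. Abcb11 was at 0.02 with upper quartile scaling, 0.00 with limma voom and with the replicate block, and -0.09 to 0.08 when each liver was left out (0.01 and 0.08 without WT liver 2 and 3). Leaving out each liver gave Nr1h4 -0.04 to 0.05, with 0.00 without WT chow liver 1, WT chow liver 2 or WT liver 3, and Gpnmb -0.19 to 1.33.

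Same-numbered HFCF livers deviated from their group means with correlations of 0.13, -0.0204 and -0.0747, and unlike-numbered ones with -0.144 to 0.152. So few livers cannot decide whether the replicate numbers pair them. As a replicate block the numbers gave 2673 calls on HFCF, 2113 on chow and 97 for the interaction. With 3 livers a group, a gene that was not called is not shown to be equal between genotypes.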

Other observations

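Hormones secreted by the liver moved both ways, with 6 higher and 7 lower of 31 tested. Lepr, the leptin receptor, which the liver also sheds, went from 12.2, 11.3 and 10.6 to 26.7, 25 and 42.4 CPM (1.46 ± 0.18, edgeR adjusted p = 1e-04). Lect2, a hepatokine, was lower in every KO liver (-0.59 ± 0.10, edgeR adjusted p = 0.000766). In iron handling, 4 rose and 6 fell of 23. Trf (transferrin), also an abundant secreted protein, went from 16580, 15200 and 14820 to 25140, 21950 and 25830 CPM (0.65 ± 0.09, edgeR adjusted p = 0.000204), and the ferroxidase gene Cp rose by 0.53 ± 0.09.

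Organic ion transporters were lower at 9 of 24 members and higher at 2, with Slc22a3, a cation carrier, going from 7.85, 4.03 and 5.22 to 1.74, 1.54 and 1.57 CPM (-1.82 ± 0.29, edgeR adjusted p = 0.000734). Of 21 pericentral and Wnt genes, 5 fell and none rose, among them Cyp2e1, the ethanol-metabolising P450, by 0.41 ± 0.09 (edgeR adjusted p = 0.00843). Of 18 clock genes, 3 fell and none rose, and Cry1, a repressor of the clock, was one of them (-0.74 ± 0.15, edgeR adjusted p = 0.00437) with Nfil3 (-0.63 ± 0.14). The hours of collection were not given in the labels used here.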
